A study of Mus musculus with 12 samples.

Results

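The EGF family ligands and their receptor were followed as 9 genes of 25203 in the deposited table, across 12 RNA-seq libraries of cultured mouse intestinal stromal cells. The genes were chosen by symbol: the ligand genes Hbegf, Ereg, Areg, Nrg1, Tgfa, Btc and Epgn, the receptor gene Egfr, and Errfi1, whose product inhibits the receptor from inside the cell. All 9 were found in the table. EGF family ligands are made as membrane-bound precursors, are cut free by metalloproteases, and bind ERBB receptors on the same or on neighbouring cells. Most of the ligands bind EGFR. Those of Hbegf, Ereg and Btc also bind ERBB4, and neuregulin 1 (Nrg1) binds ERBB3 and ERBB4. In the gut, stromal cells are a source of these ligands for the epithelium, where EGFR activity through the ERK pathway supports proliferation and repair.

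The cells were primary fibroblasts with low signal of a Pdgfra reporter, an H2B-GFP label placed at the gene of a platelet-derived growth factor receptor. They formed 4 groups of 3 libraries. Vehicle and TGFB1 are cultures not labelled knockout that received vehicle or exogenous TGF-beta 1, a cytokine that acts through the receptors TGFBR1 and TGFBR2. Vehicle_Tgfbr2KO and TGFB1_KO are Tgfbr2 knockout cultures that received vehicle or TGFB1, so TGFB1_KO is not a knockout of the Tgfb1 gene. The stated aims were to see what TGFB1 activity does in stromal fibroblasts and to measure what TGFB1 induces by non-canonical routes in the knockout cells. The dose, the time of exposure, the deleted part of Tgfbr2, the means of deletion and the age of the mice are not given in the sources used here. Nor is it said whether the 3 libraries of a group came from separate animals, so every p-value measures only the spread between these libraries, which may be technical.

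Values are FPKM, the authors' fragment counts scaled to transcript length and library size, which sets genes of different length on 1 scale. FPKM summed to between 498669 and 569510 per library. Low values placed the libraries at relative depths from 0.747 to 1.25, with the first Vehicle library as 1, and absolute depth is not known. In the order of replicates 1, 2 and 3, kept throughout, the level of Tgfbr2 was 48.0, 38.2 and 78.8 FPKM in Vehicle, 56.5, 70.6 and 74.6 in TGFB1, 27.0, 35.2 and 41.9 in Vehicle_Tgfbr2KO, and 31.6, 38.0 and 62.4 in TGFB1_KO. The groups overlapped, and a value over the whole gene cannot check a deletion of unknown extent. All 9 fibroblast markers had a mean of at least 1 FPKM in every group, with summed levels of 5764 to 10263 FPKM in Vehicle, 8454 to 9374 in TGFB1, 3008 to 4380 in Vehicle_Tgfbr2KO and 3871 to 7937 in TGFB1_KO. The sums hide opposite directions. Col1a1, Col1a2 and Vim had higher means in TGFB1 than in Vehicle (Col1a1 4046 against 2864 FPKM). The remaining markers had lower means, among them Pdgfra, the gene of the reporter (15.2 against 142 FPKM), and Col3a1 (427 against 994 FPKM). Of 8 macrophage markers, 6 had means of at least 1 FPKM in each group, and the sum of the 8 ranged from 12.4 to 601 FPKM over the 12 libraries. Lyz2 alone ranged from 8.28 to 547 FPKM. In bulk RNA, fewer cells of a type and less RNA per cell cannot be told apart.

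Of the ligand genes, Epgn, Ereg, Areg and Btc lie side by side on chromosome 5. Promoter windows of 250 bases before the transcription start, from RefSeq on build GRCm38.p6, were at hand for 6 of the 9 genes. The windows of the 3 of these neighbouring genes that had one are shown so that their letters can be read beside their levels. They are printed 5′ to 3′ on the gene's strand, with matches to the motifs searched in capitals. The Areg window is chr5:91139349-91139598 on the plus strand, the Epgn window chr5:91027267-91027516 on the plus strand and the Btc window chr5:91402995-91403244 on the minus strand.
Areg: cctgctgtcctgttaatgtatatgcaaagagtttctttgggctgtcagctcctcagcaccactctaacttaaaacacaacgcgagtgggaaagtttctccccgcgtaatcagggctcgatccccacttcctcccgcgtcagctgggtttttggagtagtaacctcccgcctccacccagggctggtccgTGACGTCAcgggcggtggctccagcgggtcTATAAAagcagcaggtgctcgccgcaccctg
Epgn: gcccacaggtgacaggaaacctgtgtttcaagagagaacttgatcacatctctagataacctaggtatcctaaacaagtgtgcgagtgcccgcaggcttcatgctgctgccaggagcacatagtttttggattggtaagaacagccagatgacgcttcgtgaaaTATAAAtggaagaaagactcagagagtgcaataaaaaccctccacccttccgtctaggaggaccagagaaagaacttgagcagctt
Btc: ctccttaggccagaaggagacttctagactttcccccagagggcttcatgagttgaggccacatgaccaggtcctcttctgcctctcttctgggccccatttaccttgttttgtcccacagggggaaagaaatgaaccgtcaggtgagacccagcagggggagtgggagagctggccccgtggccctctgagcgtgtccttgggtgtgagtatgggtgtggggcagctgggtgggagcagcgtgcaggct

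The capitals in the Areg window are TGACGTCA, the cyclic AMP response element, starting 61 bases before the start, and the core promoter element TATAAA, starting 31 bases before it. In the Epgn window they are TATAAA, starting 86 bases before the start. No match was found in the Btc window. On both strands, TGACGTCA occurred in 1.55% of 32851 such RefSeq windows and TATAAA in 12.4%. The other motifs searched were TGA, any base, then TCA for AP-1 (6.75% of windows), GTCTAGAC for a SMAD palindrome (0.167%), CAGAC for a single SMAD site (42.2%) and GGAATG for TEAD (12.6%). No motif's letters contained those of another. Errfi1 had 2 windows, of which 1 held TGACGTCA 51 bases and TATAAA 28 bases before the start and the other held the TEAD motif. The Tgfa window held the single SMAD site on the opposite strand, and the Egfr window held none. A match is a string of letters in the window and not a measured binding site.

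TGFB1 was first compared with vehicle in the cultures not labelled knockout. Hbegf and Nrg1 rose, Ereg and Btc fell, and no change of Egfr, Errfi1, Areg or Epgn passed the test. A gene was tested where at least 3 of the 12 libraries reached 1 FPKM, with limma on log2(FPKM + 1), and was called at an adjusted p under 0.05 over all 12641 tested genes. Of the 8 members tested, 4 were called, while 31.9% of all tested genes were called (17.3% higher and 14.6% lower). The median log2 change was -0.16 over the 8 members and 0.02 over all tested genes.

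**Figure D1:**
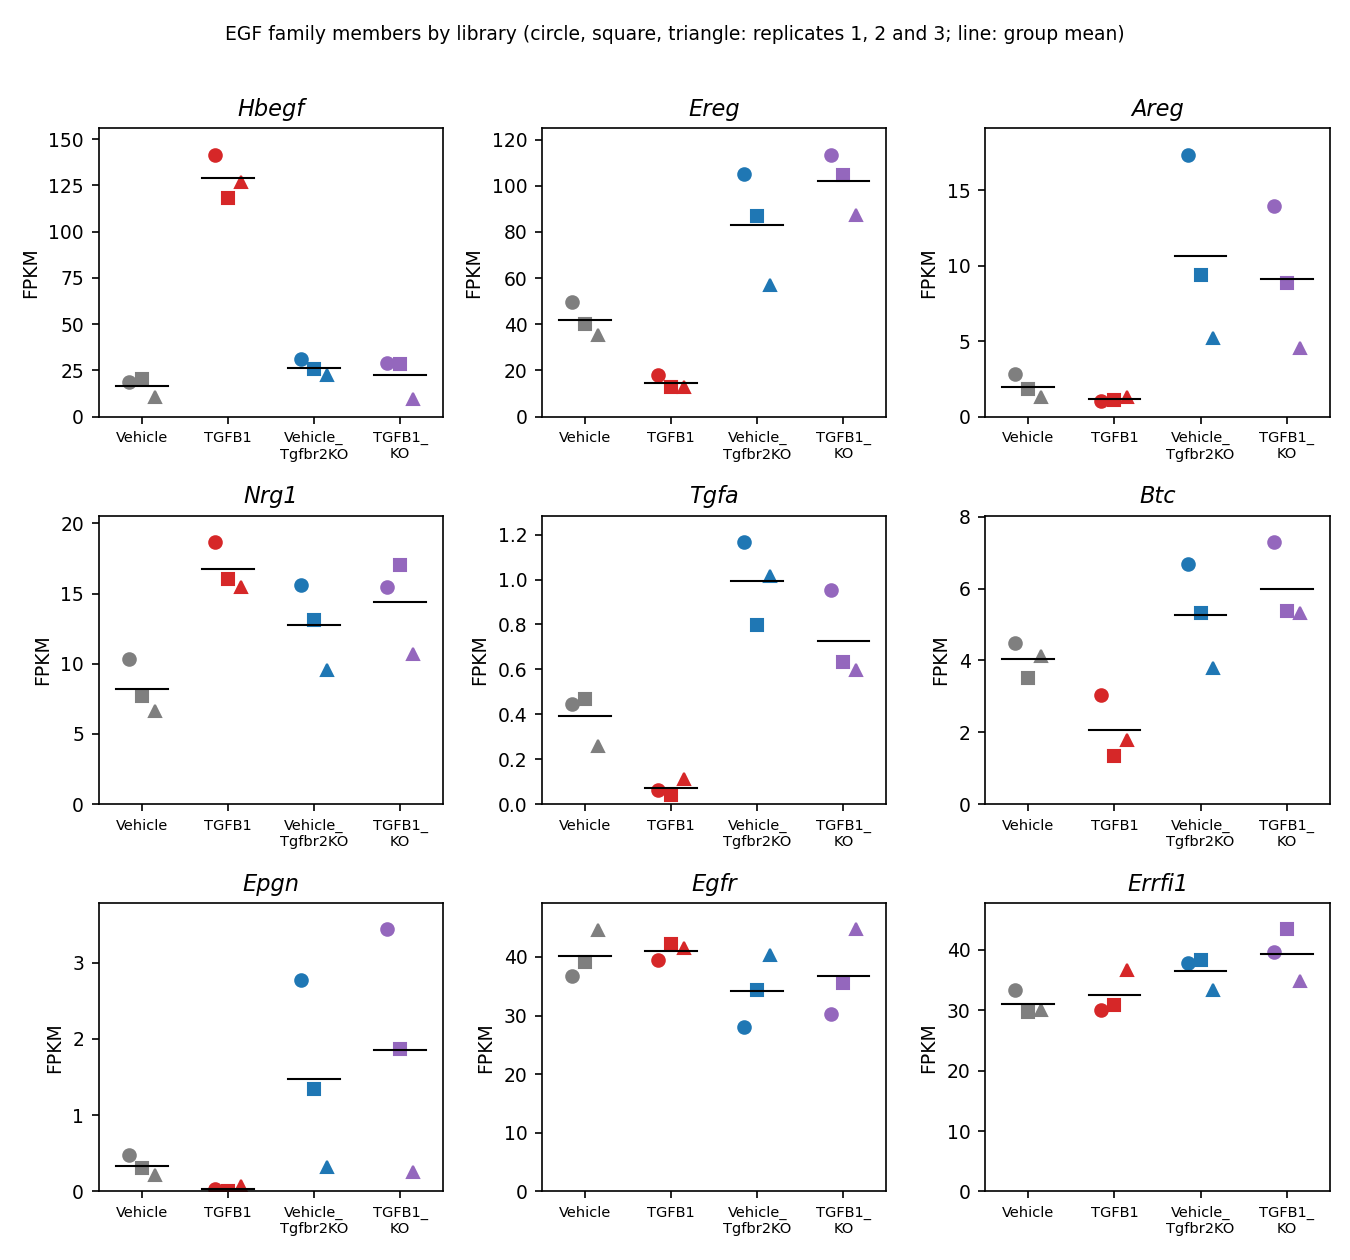
FPKM of each of the 9 genes in each library, 1 panel per gene with its own linear axis from 0; symbols mark replicates 1, 2 and 3 and lines the group means. Hbegf is high in the 3 TGFB1 libraries (118 to 142 FPKM) and Areg in the 6 knockout libraries (4.52 to 17.4 FPKM), while Egfr stays between 28.1 and 44.7 FPKM in all 12.

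Hbegf encodes heparin-binding EGF-like growth factor, whose membrane precursor is also the receptor for diphtheria toxin. Its level was 18.7, 20.2 and 10.6 FPKM in Vehicle against 142, 118 and 127 FPKM in TGFB1. The lowest TGFB1 library stood far above the highest Vehicle library. The ratio of mean levels was 7.82, and the log2 change was 2.94 (SE 0.37, 95% interval 2.11 to 3.76, limma adjusted p = 0.000279). Within Vehicle and TGFB1, replicate 2 had the least RNA of the macrophage gene Lyz2 (24.8 and 8.28 FPKM), and Hbegf there was 20.2 and 118 FPKM. Within Vehicle_Tgfbr2KO and TGFB1_KO, replicate 2 had the most Lyz2 (304 and 226 FPKM), with Hbegf at 26.0 and 28.5 FPKM. A macrophage part in the Hbegf levels was not tested.

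Ereg encodes epiregulin, a ligand of EGFR and ERBB4. Its level was 49.6, 40.3 and 35.2 FPKM in Vehicle and 18.1, 12.9 and 12.9 FPKM in TGFB1. All 3 TGFB1 libraries lay below all 3 Vehicle libraries. Mean Ereg fell from 41.7 ± 7.28 to 14.6 ± 2.98 FPKM (SD, n = 3), which is 2.85-fold lower and on the log2 scale -1.45 (SE 0.22, limma adjusted p = 0.00082).

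Nrg1, which encodes neuregulin 1, was at 10.3, 7.70 and 6.60 FPKM in Vehicle and at 18.7, 16.0 and 15.5 FPKM in TGFB1. The groups did not overlap. The ratio of mean levels was 2.04 and the log2 change 0.96 (SE 0.21, limma adjusted p = 0.00615).

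Btc encodes betacellulin, which binds EGFR and ERBB4. It was at 4.49, 3.51 and 4.12 FPKM in Vehicle and at 3.04, 1.33 and 1.79 FPKM in TGFB1, again without overlap. Its log2 change was -0.76 (SE 0.22, limma adjusted p = 0.0246), and the mean was 1.96-fold lower. This call depended on single libraries: the adjusted p was 0.075 without Vehicle replicate 1, 0.0602 without Vehicle replicate 3, 0.0879 without TGFB1 replicate 2 and 0.0763 without TGFB1 replicate 3.

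Areg, the gene of amphiregulin, was low in both groups, at 2.80, 1.80 and 1.32 FPKM in Vehicle and 1.01, 1.10 and 1.30 FPKM in TGFB1. All TGFB1 values lay under the Vehicle values, but the closest 2 differed by little and the change did not pass (log2 -0.45, SE 0.41, limma adjusted p = 0.446).

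Tgfa, the gene of transforming growth factor alpha, an EGFR ligand unrelated to TGFB1, was at 0.447, 0.466 and 0.258 FPKM in Vehicle and at 0.0622, 0.0399 and 0.113 FPKM in TGFB1. It reached 1 FPKM in 2 of the 12 libraries and so was not among the tested genes. With no filter on low values its log2 change was -0.37 (SE 0.10, limma adjusted p = 0.0243 over 20501 genes, of which 18.8% were called). Adding 1 to FPKM shrinks changes at such levels. With 0.1 added in place of 1 the log2 change of Tgfa was -1.51 (SE 0.28).

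Epgn, the gene of epigen, was at 0.475, 0.312 and 0.216 FPKM in Vehicle, and at 0.0371 and 0.0748 FPKM in TGFB1 replicates 1 and 3 with 0 in replicate 2. These are very low levels. Multiplied by the relative depth, the values were close to 16, 11 and 7 times the smallest nonzero one in Vehicle and 1, 0 and 2 times in TGFB1, with a largest distance of 0.0845 from a whole multiple in the 8 libraries under 20 multiples. No ratio is given for a gene read at so few multiples. Epgn was among the tested genes only through 4 knockout libraries, and its log2 change with TGFB1 was -0.36 (limma adjusted p = 0.583).

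Egfr was at 36.8, 39.2 and 44.5 FPKM in Vehicle and at 39.5, 42.2 and 41.5 FPKM in TGFB1. The 3 TGFB1 values lay inside the range of the Vehicle values. The log2 difference was 0.03, with a 95% interval from -0.30 to 0.37 (limma adjusted p = 0.889), and it was -0.01 under upper-quartile scaling. Errfi1, also called Mig6, is induced by receptor signalling and limits it in return. It was at 33.4, 29.8 and 30.0 FPKM in Vehicle and at 30.1, 30.8 and 36.6 FPKM in TGFB1, overlapping ranges with a log2 difference of 0.06 (95% interval -0.16 to 0.28, limma adjusted p = 0.692).

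Ranges of the 2 groups did not overlap for 6 of the 8 tested members, 2 higher and 4 lower with TGFB1. The 4 lower include Areg, whose closest values were 1.32 and 1.30 FPKM, and Epgn, at 0 to 0.0748 FPKM in TGFB1. Epgn was among the tested genes only through knockout libraries, which are outside this comparison. Among all tested genes 47.9% did not overlap, 26.1% higher and 21.8% lower.

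The ligand gene with the highest level differed between the groups. In Vehicle the order of mean FPKM was Ereg, Hbegf, Nrg1, Btc, Areg, Tgfa and Epgn, and in TGFB1 it was Hbegf, Nrg1, Ereg, Btc, Areg, Tgfa and Epgn. In TGFB1 the ranges of Nrg1 (15.5 to 18.7 FPKM) and Ereg (12.9 to 18.1 FPKM) overlapped, so their order is not resolved. In Vehicle Tgfa and Epgn likewise overlapped. The FPKM of the 7 ligand genes summed to 73.2 ± 14.3 in Vehicle and 164 ± 17.0 in TGFB1 (SD, n = 3). Hbegf made up 22.3% ± 4.54 of that sum in Vehicle and 78.9% ± 1.23 in TGFB1, and Ereg 57.3% ± 3.07 and 8.88% ± 0.908. Without Hbegf the sums were 56.7 ± 10.4 and 34.7 ± 5.42 FPKM. These sums are over transcripts of the ligands and say nothing of the amount of released protein.

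**Figure D2:**
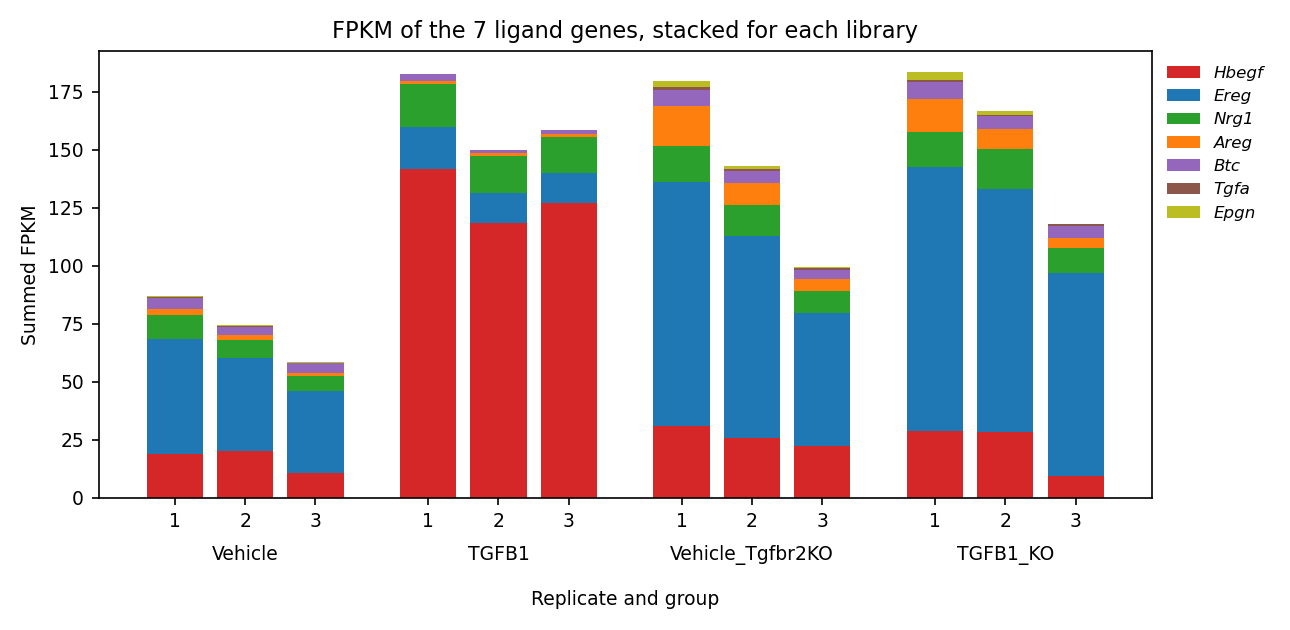
FPKM of the 7 ligand genes stacked for each of the 12 libraries (vertical axis summed FPKM from 0; horizontal axis replicate and group). Hbegf fills 77.6% to 80.0% of each TGFB1 bar, and Ereg is the largest share in the other 9 libraries.

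The same exposure was next compared in the Tgfbr2 knockout cultures, TGFB1_KO against Vehicle_Tgfbr2KO. No member was called by limma, and percent called over all tested genes was 0%. At an unadjusted p under 0.05 limma gave 0 of the 8 members and 748 of all tested genes (5.92%). With the replicate number as a block within each genotype limma again called none, and an unadjusted p under 0.05 was given for 1 member, Ereg, and 1976 of all tested genes (15.6%). Hbegf was at 30.9, 26.0 and 22.4 FPKM with vehicle and at 28.8, 28.5 and 9.44 FPKM with TGFB1. The log2 difference was -0.38, with a 95% interval from -1.20 to 0.45 (limma adjusted p = 0.767), so the upper bound lay below the lower bound of 2.11 in the cultures not labelled knockout. TGFB1_KO replicate 3 was the only library of the 6 under 22.4 FPKM, and without the replicate 3 libraries of all 4 groups the difference was 0.02.

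Ereg in the knockout cultures was at 105, 86.9 and 57.2 FPKM with vehicle and at 114, 105 and 87.4 FPKM with TGFB1. Each TGFB1_KO library exceeded the Vehicle_Tgfbr2KO library of its replicate number, but the groups overlapped (log2 difference 0.33, 95% interval -0.16 to 0.81, limma adjusted p = 0.738). Areg was at 17.4, 9.40 and 5.21 FPKM with vehicle and at 14.0, 8.84 and 4.52 FPKM with TGFB1, highest in replicate 1 and lowest in replicate 3 of both groups. Its difference, -0.18, was smaller than its SE of 0.41. Epgn was also highest in replicate 1 and lowest in replicate 3, with 2.78, 1.34 and 0.319 FPKM with vehicle and 3.44, 1.87 and 0.249 FPKM with TGFB1.

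Nrg1 was at 15.6, 13.2 and 9.53 FPKM in Vehicle_Tgfbr2KO and at 15.5, 17.0 and 10.7 FPKM in TGFB1_KO. For Btc the levels in these 2 groups were 6.69, 5.31 and 3.79 FPKM with vehicle, then 7.30, 5.38 and 5.32 FPKM with TGFB1. Tgfa gave 1.17, 0.799 and 1.02 FPKM with vehicle, then 0.954, 0.632 and 0.596 FPKM with TGFB1. All 3 genes overlapped between the groups, and the log2 differences of Nrg1 and Btc were 0.16 and 0.17 (limma adjusted p = 0.81 and 0.809).

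Egfr was at 28.1, 34.3 and 40.3 FPKM with vehicle and at 30.2, 35.5 and 44.7 FPKM with TGFB1, a log2 difference of 0.10 (95% interval -0.23 to 0.43). Errfi1 gave 37.8, 38.4 and 33.4 FPKM with vehicle, then 39.7, 43.4 and 34.8 FPKM with TGFB1, also 0.10 (95% interval -0.12 to 0.32). For all 8 tested members the ranges of the 2 groups overlapped, while 11.8% of all tested genes had ranges that did not (6.6% higher and 5.23% lower).

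Whether the change with TGFB1 differed between the genotypes was tested as an interaction, the change in knockout cultures minus that in the others. The difference passed for Hbegf, at -3.32 on the log2 scale (SE 0.52, 95% interval -4.48 to -2.15, limma adjusted p = 0.00249). It also passed for Ereg, at 1.78 (SE 0.31, 95% interval 1.09 to 2.47, limma adjusted p = 0.00401). These were 2 of the 8 tested members, and 17.6% of all tested genes were called (8.38% higher and 9.26% lower).

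Nrg1 had an interaction of -0.80 (SE 0.30, limma adjusted p = 0.0906) and Btc one of 0.93 (SE 0.31, limma adjusted p = 0.0648), and neither passed. With the replicate number as a block within each genotype both did, at limma adjusted p = 0.00532 for Nrg1 and 0.00975 for Btc, which makes 4 of 8 members where 28.1% of all tested genes were called. For Areg, Epgn, Egfr and Errfi1 the interactions were 0.27, 0.51, 0.06 and 0.04, each smaller than its SE, and did not pass. The interval of the Areg interaction ran from -1.02 to 1.55, so a difference of either sign was not resolved.

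**Figure D3:**
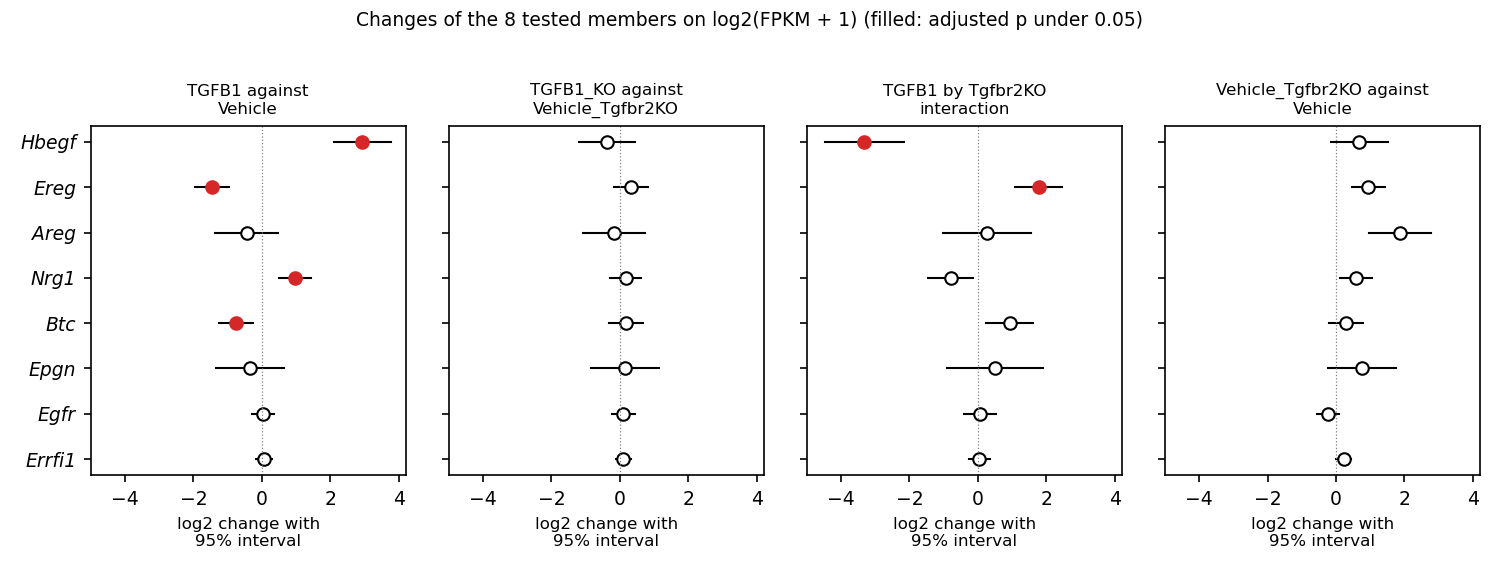
Log2 changes of the 8 tested members on log2(FPKM + 1) with 95% intervals in the 4 comparisons; filled points have an adjusted p under 0.05. Hbegf (2.94), Nrg1 (0.96), Btc (-0.76) and Ereg (-1.45) are filled in TGFB1 against Vehicle, Hbegf (-3.32) and Ereg (1.78) in the interaction, and none in the other 2 panels.

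The vehicle cultures of the 2 genotypes were then compared, Vehicle_Tgfbr2KO against Vehicle. This comparison shares the Vehicle libraries with the first one, so opposite signs in both are not independent. No member was called by limma, where 1.24% of all tested genes were called (0.522% higher and 0.72% lower). At an unadjusted p under 0.05 limma gave 4 members (Areg, Ereg, Nrg1 and Errfi1) and 2769 of all tested genes (21.9%).

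Areg stood furthest apart. Its level was 2.80, 1.80 and 1.32 FPKM in Vehicle against 17.4, 9.40 and 5.21 FPKM in Vehicle_Tgfbr2KO, ranges without overlap. The mean was 5.40 times as high, with a log2 difference of 1.86 (SE 0.41, 95% interval 0.95 to 2.77, limma adjusted p = 0.0578). Without Vehicle_Tgfbr2KO replicate 1 the difference was 1.46 (limma adjusted p = 0.222). That library also held the most RNA of epithelial keratins, with Krt8 at 25.8 FPKM, against 0 and 0.0542 FPKM in Vehicle_Tgfbr2KO replicates 2 and 3, which had Areg at 9.40 and 5.21 FPKM. The 8 epithelial markers summed to 6.21 to 9.64 FPKM in Vehicle, 3.20 to 6.14 in TGFB1, 8.84 to 66.0 in Vehicle_Tgfbr2KO and 7.07 to 29.5 in TGFB1_KO. In Vehicle Krt19 alone was at 5.34 to 8.15 FPKM and Krt8 was at 0. Vehicle_Tgfbr2KO replicate 1 had Krt18 at 21.8 and Epcam at 1.02 FPKM, and the mesothelial marker Msln at 5.52 FPKM. What part epithelial or mesothelial RNA had in the Areg difference beyond these values was not tested.

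Ereg was at 49.6, 40.3 and 35.2 FPKM in Vehicle and at 105, 86.9 and 57.2 FPKM in Vehicle_Tgfbr2KO, without overlap. The mean was 1.99 times as high (log2 difference 0.95, SE 0.22, limma adjusted p = 0.0649). Hbegf ranged from 10.6 to 20.2 FPKM in Vehicle libraries and from 22.4 to 30.9 FPKM in Vehicle_Tgfbr2KO, also without overlap, with a log2 difference of 0.68 whose interval reached from -0.14 to 1.51 (limma adjusted p = 0.301). These 3 of 8 tested members did not overlap, against 30.3% of all tested genes (14.8% higher and 15.6% lower).

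Nrg1 ranged from 6.60 to 10.3 FPKM in Vehicle libraries and from 9.53 to 15.6 FPKM in Vehicle_Tgfbr2KO (log2 difference 0.57, limma adjusted p = 0.161). Btc was at 3.51 to 4.49 and 3.79 to 6.69 FPKM (0.29, limma adjusted p = 0.45). Epgn was at 0.216 to 0.475 and 0.319 to 2.78 FPKM (0.77, limma adjusted p = 0.331). It was among the tested genes only through 4 knockout libraries, so its selection and this comparison were not independent. Ranges overlapped for all 3 genes. Tgfa, untested for its low level, ranged from 0.258 to 0.466 FPKM in Vehicle libraries and from 0.799 to 1.17 FPKM in Vehicle_Tgfbr2KO, and with no filter its log2 difference was 0.52 (limma adjusted p = 0.0586). With 0.1 added to FPKM in place of 1 that difference was 1.17 (limma adjusted p = 0.102).

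Egfr had a lower mean in Vehicle_Tgfbr2KO, at 34.2 ± 6.08 against 40.2 ± 3.94 FPKM (SD, n = 3), and Errfi1 a higher one, at 36.5 ± 2.75 against 31.1 ± 2.04 FPKM. The ranges of Egfr overlapped (log2 difference -0.24, limma adjusted p = 0.37), as did those of Errfi1 (0.22, limma adjusted p = 0.223). The 7 ligand genes summed to 141 ± 40.1 FPKM in Vehicle_Tgfbr2KO and 156 ± 33.9 in TGFB1_KO. Hbegf made up 19.3% ± 2.84 and 13.6% ± 4.90 of these sums and Ereg 59.0% ± 1.71 and 66.2% ± 6.72. The ratio of Hbegf to Ereg FPKM was 0.393 ± 0.101 in Vehicle, 8.95 ± 1.02 in TGFB1, 0.328 ± 0.0553 in Vehicle_Tgfbr2KO and 0.211 ± 0.0899 in TGFB1_KO (SD, n = 3).

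Of the 7 other ERBB receptor and ligand genes only Erbb2 was tested, and the rest stayed under 1 FPKM in every library. Erbb2, the co-receptor without a ligand of its own, was at 6.39 to 8.07 FPKM over the 12 libraries, and its log2 change with TGFB1 was -0.08 (limma adjusted p = 0.323). Erbb3 was at 0 to 0.104 FPKM, and Erbb4 was listed at 0 in all 12. Among the remaining ligand genes Egf was at 0.0357 to 0.335 FPKM, Nrg2 at 0.0366 to 0.245, Nrg3 at 0 to 0.0648 and Nrg4 at 0.314 to 0.894 FPKM. Egfr was thus the ERBB receptor gene with the highest level in every group, and the genes of ERBB3 and ERBB4, the receptors of neuregulin 1, were at or near 0.

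Genes for the release of EGF family ligands were described from a list of 10, of which 9 were in the table and tested. With TGFB1 in the cultures not labelled knockout 4 rose and 2 fell, where 17.3% of all tested genes rose and 14.6% fell. The median log2 change was 0.20 against 0.02 over all tested genes. Timp3, an inhibitor of ligand-shedding metalloproteases, was at 84.4, 85.8 and 66.3 FPKM in Vehicle and 197, 182 and 164 FPKM in TGFB1, a rise of 1.20 on the log2 scale (SE 0.16, limma adjusted p = 0.000418). Adam17, the main sheddase of Hbegf, Ereg, Areg and Tgfa precursors, was at 16.1, 16.5 and 18.2 FPKM in Vehicle and 11.4, 11.7 and 12.8 FPKM in TGFB1, and it fell by 0.47 (SE 0.12, limma adjusted p = 0.0128). Groups did not overlap for either gene.

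Among the other metalloprotease genes of the list Adam12 rose by a log2 change of 1.08 and Adam19 by 0.42, and Adam9 fell by 0.53 (limma adjusted p = 0.00444, 0.00256 and 0.036). In the knockout cultures none of the 9 passed, where 0% of all tested genes were called. The changes there were 0.02 for Timp3 and 0.12 for Adam17. The interaction passed for 4 of the 9, where 17.6% of all tested genes were called. Among the 4 were Timp3 (-1.18, limma adjusted p = 0.00672), Adam19 (-0.53, limma adjusted p = 0.00899) and Adam17 (0.59, limma adjusted p = 0.0362).

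Of 18 genes for receptor adaptors and receptor turnover 16 were tested, and 6 rose with TGFB1 while none fell (median log2 change 0.21), where 17.3% of all tested genes rose and 14.6% fell. Lrig3, a transmembrane protein of a family that regulates ERBB receptors, was at 4.48, 5.73 and 6.29 FPKM in Vehicle and at 20.3, 27.7 and 20.9 FPKM in TGFB1. This was a 4.18-fold rise of the mean without overlap (log2 1.88, SE 0.22, limma adjusted p = 0.000197). In the knockout cultures Lrig3 was at 2.46 to 4.38 FPKM with vehicle and 3.06 to 6.09 FPKM with TGFB1, and the interaction of -1.54 passed (limma adjusted p = 0.00889). Sh3kbp1, an endocytic adaptor of the CBL ubiquitin ligases, rose by 0.74 and Rnf41, a ubiquitin ligase for ERBB3, by 0.49 (limma adjusted p = 0.00631 and 0.0019). None of the 16 passed in the knockout cultures, where 0% of all tested genes were called. The interaction passed for 6, all lower, where 17.6% of all tested genes were called (8.38% higher and 9.26% lower).

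Genes known to respond to ERK signalling split. All 21 of the list were tested, 6 rose and 5 fell with TGFB1, where 17.3% of all tested genes rose and 14.6% fell, and the median log2 change was -0.12. Egr2, an immediate early transcription factor, was at 2.29, 1.97 and 4.34 FPKM in Vehicle and at 21.5, 20.8 and 24.5 FPKM in TGFB1 (7.77-fold, log2 2.64, SE 0.23, limma adjusted p = 2.92e-05). The ERK phosphatase genes Dusp4 and Dusp5 rose by 1.30 and 1.29 (limma adjusted p = 0.042 and 0.0139). Dusp4 and Dusp5 remove phosphate from ERK in the nucleus.

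Spry2, a Sprouty gene that limits receptor tyrosine kinase signalling, was at 56.2, 55.3 and 56.3 FPKM in Vehicle and at 20.5, 24.2 and 21.9 FPKM in TGFB1. It fell by 1.30 on the log2 scale (SE 0.09, limma adjusted p = 9.38e-06), and the interaction was 1.46 (limma adjusted p = 0.000114). Ccnd1, the cyclin D1 gene, was at 56.6, 48.7 and 33.6 FPKM in Vehicle and at 18.8, 16.9 and 19.0 FPKM in TGFB1 (log2 -1.27, SE 0.23, limma adjusted p = 0.00212). The AP-1 subunit gene Fosl1 fell by 0.99 (limma adjusted p = 0.038). The 6 that rose and the 5 that fell thus included transcription factors and feedback inhibitors in both directions.

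In the knockout cultures no gene of the ERK list passed with TGFB1, where 0% of all tested genes were called. The log2 change was 0.66 for Egr2 and 0.16 for Spry2. The largest changes there, named after their values were seen, were those of the immediate early genes Fos and Egr1. Fos was at 4.83, 6.58 and 6.09 FPKM with vehicle against 12.6, 12.7 and 22.5 FPKM with TGFB1 (log2 1.27, SE 0.27, limma adjusted p = 0.643). Egr1 was at 30.3, 41.4 and 37.0 FPKM against 68.3, 76.9 and 99.7 FPKM (log2 1.14, SE 0.25, limma adjusted p = 0.643). Neither gene's groups overlapped, nor did those of Egr2, Egr3 (log2 0.37) and Ier2 (log2 0.59, limma adjusted p = 0.735), all higher with TGFB1. Spry4 did not overlap either and was lower (log2 -0.27, limma adjusted p = 0.738). Among all tested genes 11.8% did not overlap in this comparison (6.6% higher and 5.23% lower). The interaction passed for 9 of the 21, 4 higher and 5 lower, where 17.6% of all tested genes were called. Fos (2.13, limma adjusted p = 0.00453) and Egr1 (1.27, limma adjusted p = 0.0321) were among the 4. Between the vehicle cultures, where 1.24% of all tested genes were called, Ccnd1 alone of the 21 passed. It was 2.14-fold higher in Vehicle_Tgfbr2KO at 119, 80.3 and 98.3 FPKM (log2 1.10, limma adjusted p = 0.0497). That adjusted p lies just under the threshold.

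**Figure D4:**
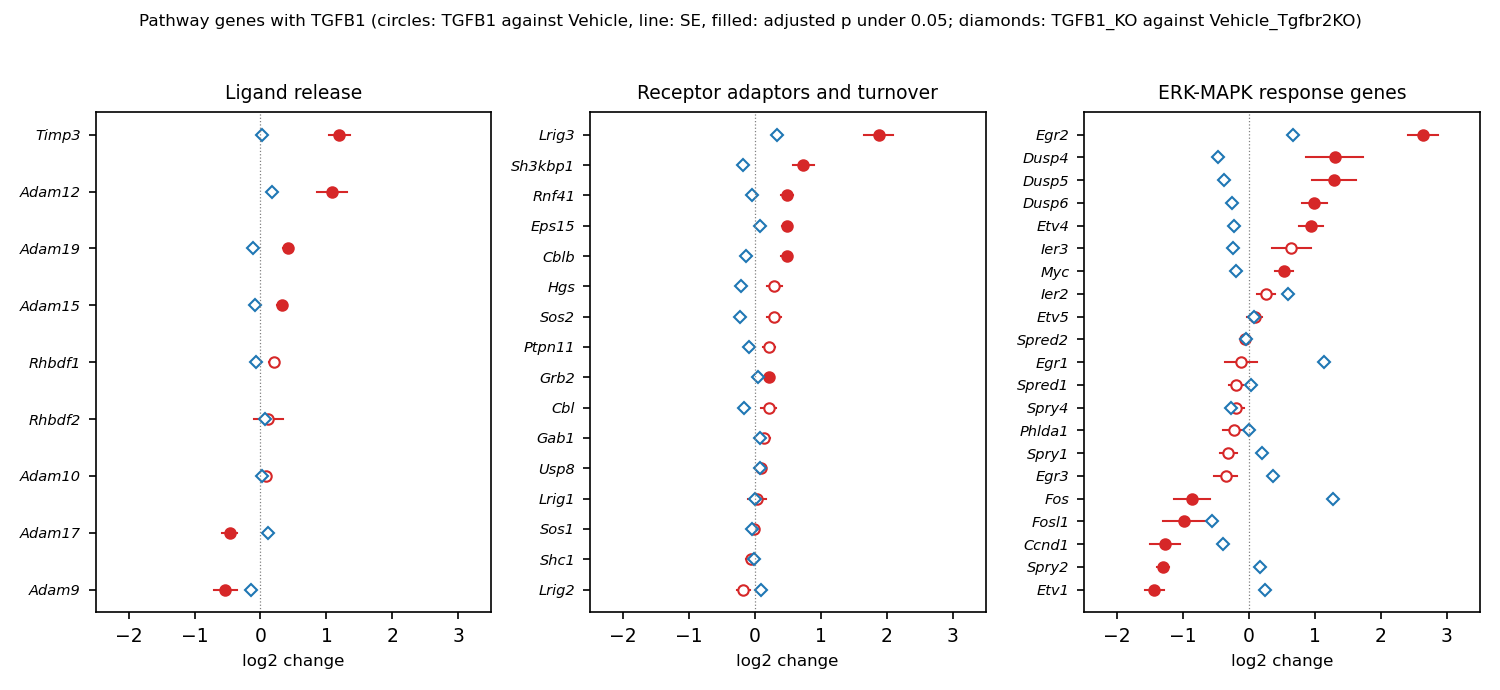
Log2 changes with TGFB1 of the tested genes for ligand release, receptor adaptors and turnover, and ERK-MAPK response, sorted within each panel; circles with SE lines are TGFB1 against Vehicle, filled at an adjusted p under 0.05, and diamonds are TGFB1_KO against Vehicle_Tgfbr2KO. Filled circles run from Egr2 (2.64) down to Etv1 (-1.43). None of the genes passed in the knockout comparison, where 0% of all tested genes were called.

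The genes around the chromosome 5 ligands were read as a comparison, chosen after the values were seen, in the gene order of RefSeq on GRCm38.p6. Epgn, Ereg, Areg and Btc lie between Mthfd2l and Parm1, with a run of chemokine genes on the Mthfd2l side. Of the 5 protein-coding genes on either side, 9 of 10 were in the table and 8 were tested, and with TGFB1 1 rose and 2 fell, near the 31.9% called over all tested genes. Mthfd2l and Parm1, next to the ligand genes, had log2 changes of -0.19 and -0.10 that did not pass (limma adjusted p = 0.234 and 0.698). The chemokine gene Cxcl1 fell by 2.62 (SE 0.34, limma adjusted p = 0.000315) and Cxcl3 by 0.79 (limma adjusted p = 0.0471), while Cxcl2 at -1.11 did not pass (limma adjusted p = 0.0679). Odaph, a gene of tooth enamel formation beyond Parm1, rose from a mean of 1.74 to 83.7 FPKM (log2 4.97, SE 0.74, limma adjusted p = 0.000762). None of the 8 passed in the knockout cultures with TGFB1 or between the vehicle cultures. Of all tested genes 0% and 1.24% were called in these comparisons. The changes along this stretch thus had both signs, with Ereg and Btc lower between neighbours that did not pass and Odaph higher.

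**Figure D5:**
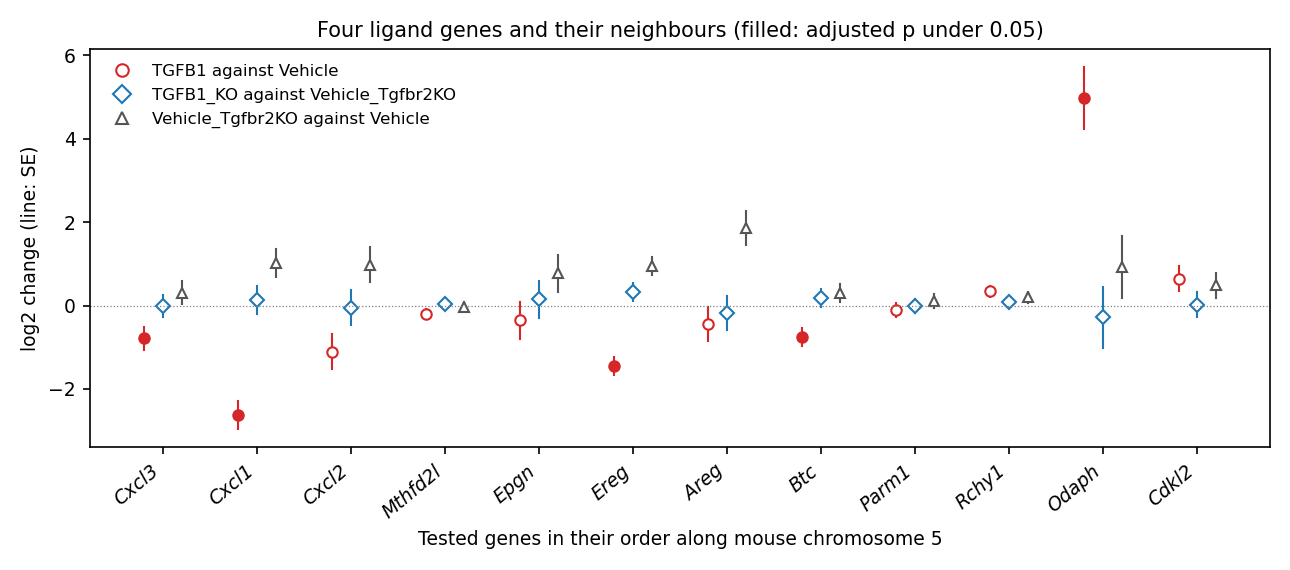
Log2 changes with SE lines of the tested genes in their order along mouse chromosome 5 around Epgn, Ereg, Areg and Btc, for 3 comparisons; filled symbols have an adjusted p under 0.05. With TGFB1 against Vehicle, Cxcl1 (-2.62), Cxcl3 (-0.79), Ereg (-1.45) and Btc (-0.76) are filled below 0 and Odaph (4.97) above.

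For each tested member the genes whose pattern was most like it were taken by Pearson's correlation of log2(FPKM + 1) over the 12 libraries, which share 4 groups and 3 replicate numbers. They are the highest of 9338 candidate genes, or of 9339 for Epgn, and no chance level was computed. For Hbegf these were Inhba (r = 0.992), Acsbg1 (0.989) and Eif2b2 (0.989). Inhba, the gene of the activin A subunit, had means of 43.4 FPKM in Vehicle, 182 in TGFB1, 54.0 in Vehicle_Tgfbr2KO and 45.6 in TGFB1_KO. For Ereg they were Pam (0.991), Qpct (0.983) and Sash1 (0.982). Pam, the gene of a peptide-amidating enzyme, had means of 24.0, 16.3, 31.8 and 32.5 FPKM in the same order.

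For Areg the closest genes were Urml (0.987), Gstp1 (0.986) and Jam2 (0.984), and Gstp1 (0.964) was also the closest to Epgn, before Plau (0.945) and Dusp1 (0.943). Epgn was among the tested genes only through 4 knockout libraries, so its selection and its correlations were not independent. For Nrg1 they were Ccnd2 (0.948), Pdrg1 (0.942) and Cstb (0.938), and for Btc Arf2 (0.985), Enpp5 (0.965) and Lynx1 (0.964). Egfr was most like Elp3 (0.965), Irf1 (0.963) and Msi2 (0.962), and Errfi1 most like Gzme (0.897), Ccnyl1 (0.889) and Chp1 (0.887). The lowest of these correlations belonged to Errfi1, whose group means spanned only 31.1 to 39.3 FPKM.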

How the data were processed

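The authors deposited 1 table of FPKM per gene symbol for the 12 libraries, and no column belonged to another sample (0). The submitters' processing notes name kallisto 0.46.1, DESeq2 1.40.1 and the build mm9. How these led to the deposited FPKM, and how libraries were scaled, is not given in the sources used here. Per the labels' protocols, libraries were made from polyadenylated RNA with random primers.

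Tests used log2(FPKM + 1), which understates changes of low genes, and folds are ratios of mean FPKM. Of 25203 genes, 4702 were 0 in every library and 12641 had at least 1 FPKM in at least 3 libraries. Group means of all 12 libraries were fitted with limma 3.58.1 in R 4.3.3 (8 residual degrees of freedom, variance trend), with Benjamini-Hochberg adjustment and a threshold of 0.05. Python 3.11.15, numpy 2.4.6, pandas 2.3.3 and matplotlib 3.10.9 were used for descriptions and figures. The script was tested on simulated data. The median SE of a log2 change was 0.109. The alternatives were the replicate block (for all libraries and within genotype), pseudocounts of 0.1 and 0.5, no filter, a filter at 2 FPKM, upper-quartile scaling, only the groups compared, each library left out, and, chosen after seeing the data, the 4 libraries with the label number of replicate 3 left out.

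The labels give all 4 groups the numbers 31, 121 and 123. Each library's deviation from its group mean was correlated across genes with that of the same number in another group. For Vehicle with TGFB1 the correlations were 0.391, 0.445 and 0.408, and for the 2 knockout groups 0.588, 0.227 and 0.529, and numbers were taken as pairs within a genotype. The main tests did not use these pairs, which entered only the alternatives with a replicate block. For TGFB1 against Vehicle, limma with the block within genotype gave 6 members an unadjusted p under 0.05 (49.3% of all tested genes). Without the block limma gave 4 members (42.1%), and 4 members were called in both fits. Between Vehicle and Vehicle_Tgfbr2KO the correlations were 0.336, -0.0867 and 0.412, and pairs were not taken across genotypes. The values 0.336 and 0.412 exceed the 0.227 within the knockout. Libraries of different numbers were not correlated, so these values do not settle the pairing.

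The members and gene lists were chosen with earlier results of these data known. Beside the members, the text names up to 3 called genes of each pathway list in each direction with TGFB1, by the largest log2 change among genes averaging 1 FPKM or more in both groups or 5 FPKM in 1, and, among genes averaging 5 FPKM or more in any group, the 3 most alike each tested member. RefSeq promoter windows are on GRCm38.p6, not the mm9 of the FPKM. Protein sequences were not used here.

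Marker lists gave levels only. Villus base telocyte markers reached a mean of 1 FPKM for 2 of 6 genes in each group, and smooth muscle and pericyte markers for 5 of 6. Over the 12 libraries the telocyte markers summed to 243 to 486 FPKM and the smooth muscle and pericyte markers to 1214 to 2575 FPKM. Of the latter, Actg2 alone was at 1083 to 2413 FPKM. Of the telocyte markers, F3 alone was at 228 to 446 FPKM, and Foxl1 was at most 0.500 FPKM. Sums over the 12 libraries were at most 0.645 FPKM for squamous epithelium, 5.94 for mesothelium, 14.8 for endothelium and 1.11 for enteric glia.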

Additional observations from a re-analysis of the deposited data

Results flagged for a closer look

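The change with TGFB1 differed between the genotypes for 2 of the 8 tested members, by a test of the difference itself. The same test called 17.6% of all tested genes. For Hbegf the interaction was -3.32 on the log2 scale (limma adjusted p = 0.00249): the level was higher with TGFB1 in 3 of 3 replicates of the cultures not labelled knockout, and in 1 of 3 of the knockout cultures. For Ereg it was 1.78 (limma adjusted p = 0.00401): the level was lower with TGFB1 in 3 of 3 replicates of the first and higher in 3 of 3 of the second.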

How the results depend on the processing

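Over all alternatives the log2 change with TGFB1 ran from 2.67 to 3.10 for Hbegf, from -1.61 to -1.32 for Ereg and from 0.83 to 1.12 for Nrg1, all called, and from -1.01 to -0.58 for Btc, where it was not called without Vehicle replicate 1 or 3, without TGFB1 replicate 2 or 3, or without the 4 libraries numbered 3 (the third replicate of each group) (limma adjusted p from 0.0602 to 0.110). Among all members' changes, 470 alternative values kept direction and call, 9 gained and 5 lost the call and 24 changed sign, none of a called change. With upper-quartile scaling Egfr with TGFB1 was -0.0119, and without the 4 libraries numbered 3 Errfi1 with TGFB1 was -0.0498, Hbegf in the knockout 0.0151 and the Egfr interaction -0.0278. With single libraries left out, changes ran from -0.0244 to 0.11 for Egfr and -0.0262 to 0.11 for Errfi1 with TGFB1. In the knockout they ran from -0.63 to 0.12 for Hbegf, -0.57 to 0.22 for Areg, -0.0164 to 0.35 for Nrg1, -0.005 to 0.34 for Btc, -0.26 to 0.65 for Epgn and -0.0475 to 0.23 for Egfr. Interactions ran from -0.12 to 0.66 for Areg, -0.0822 to 0.19 for Egfr and -0.0318 to 0.13 for Errfi1.

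With the replicate block, within genotype or over all libraries, 4 members had a called interaction, and 3558 and 3658 genes did, against 2230 without it and 1430 to 2454 with single libraries left out. Without pairs across genotypes being established, the block over all libraries called 3 members between the vehicle cultures (Ereg, Areg and Nrg1, limma adjusted p = 0.0084, 0.011 and 0.0184) and 1897 of all 12641 genes, against 0 members and 157 genes without it, 71 with no filter, 0 with only the groups compared, 49 without the 4 libraries numbered 3 and 0 to 86 with single libraries left out. In the knockout, 1 gene was called with a pseudocount of 0.1 and 0 otherwise. The cause of these shifts was not tested. Absolute depth is not known, so levels under 1 FPKM (Tgfa and Epgn) carry no counting interval.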
